A study of Planococcus citri with 8 samples.

Results

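Of the 40620 gene models in the count table of the citrus mealybug *Planococcus citri*, 6 that carry yolk or lipid transport annotations were described. Of these, g892, g891, g33039 and g37912, are annotated with the InterPro entry Lipase/vitellogenin, g31300 with the von Willebrand factor type D domain and g36282 with the N-terminal domain of lipid transport proteins. They were chosen by their counts in virgin and mated females, so their difference between these groups is given here as a description, without a test. All 6 passed the filter on low counts.

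Insect eggs are provisioned with yolk that is made largely outside the oocyte, as a rule in the fat body. Vitellogenin, the usual yolk precursor, is a large lipid transfer protein that is secreted into the haemolymph and taken up by the oocyte through a receptor of the low-density lipoprotein (LDL) receptor family. Lipophorin, built on the related apolipophorin, carries lipid between fat body, ovary and other tissues. Higher flies lack vitellogenin and fill their eggs with yolk proteins that descend from lipases, and this is where the name of the Lipase/vitellogenin entry comes from. The entry marks a lipase fold that secreted neutral lipases also have.

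RNA-seq was performed on polyadenylated RNA from whole adult females, with 4 libraries of virgin females (replicates 2, 3, 5 and 6) and 4 of mated females (replicates 8, 9, 10 and 11). Each library came from a pool of approximately 150 insects, about 100 mg, described as a biological replicate. All females belonged to a laboratory colony kept on lemons in the dark. Virgin females grew on separate lemons from which male cocoons had been picked off, while mated females came from the main stock colony and were taken once ovisacs with fertilised eggs were seen. Effects of mating, of egg laying and of the way the insects were kept cannot be told apart in this design. In whole insects, fewer cells of a type and less RNA per cell cannot be told apart either.

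The libraries held 29667566 to 50301861 counted read pairs. On the first principal component of log2 expression, which took 76.9% of the variance, the mated libraries spanned 83.3 to 139, and the virgin libraries other than replicate 2 spanned -152.6 to -131.1. At -8.55, virgin replicate 2 stood apart from the rest of its group, so many values are also given without it. Levels are given as CPM, counts relative to the library size after TMM scaling, on which 1 count stood for 0.0199 to 0.0337 before scaling. The files give no length for a gene model, so CPM of different gene models compare read pairs and not expression per length.

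The label was checked against the annotation. A vitellogenin or apolipophorin is expected to hold a large lipid transfer region together with a von Willebrand factor type D domain. Of the 6 gene models, g36282 carries an entry of the lipid transfer region and g31300 that of the type D domain, and each model has 1 InterPro entry in the deposited table, so it cannot be seen whether either holds both. The Lipase/vitellogenin entry does not by itself mark a yolk protein, and the 4 models with it are called lipase/vitellogenin gene models below. No chorion or vitelline membrane entry was found (0 gene models) with which eggshell formation could have been followed.

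The 4 lipase/vitellogenin gene models together took up a large part of the mated libraries and little of the virgin ones. Their summed share of read pairs was 2.49%, 0.361%, 0.1804% and 0.518% in virgin replicates 2, 3, 5 and 6, against 6.70%, 10.1%, 12.9% and 11.8% in mated replicates 8, 9, 10 and 11. The mean was 0.886 ± 1.08% in virgin and 10.4 ± 2.72% in mated females (SD, n = 4 each), and 0.353 ± 0.169% in virgin females without replicate 2. In counts, this came to 72733 to 855226 read pairs in a virgin library and 2227674 to 6504649 in a mated one. The highest virgin share, that of replicate 2, stayed below the lowest mated share, and the other virgin libraries were far below both.

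**Figure D1:**
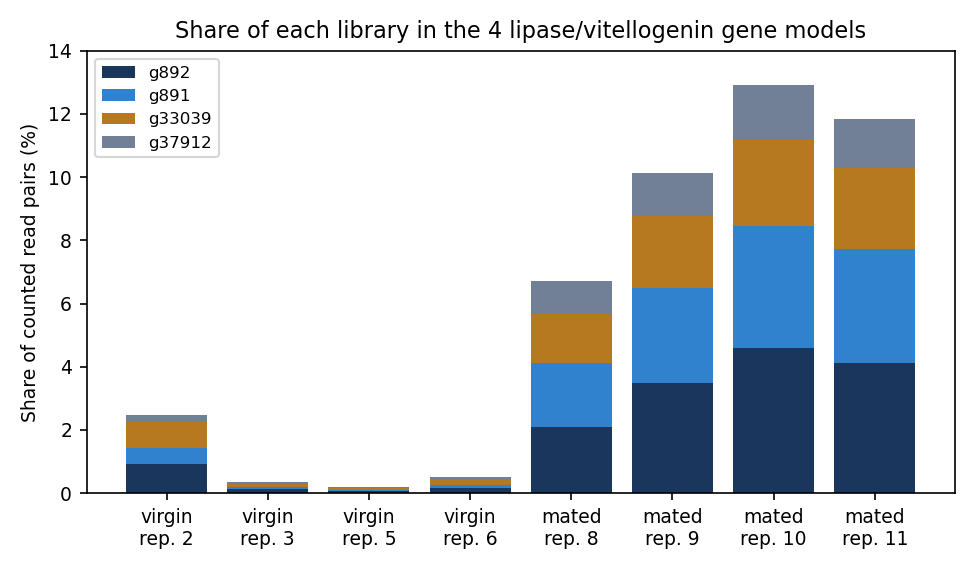
Share of all counted read pairs, in percent, that fell in g892, g891, g33039 and g37912 (stacked colours) in each library, virgin libraries on the left. The summed share was at most 2.49% in the virgin libraries and at least 6.70% in the mated ones.

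In every mated library, g892, g891, g33039 and g37912 were the 4 gene models with the most read pairs of the whole table, in this order. In virgin females their places differed from library to library. g892 ranked 2 in virgin replicate 2 but 64, 191 and 39 in virgin replicates 3, 5 and 6, and g37912 ranked 18, 170, 528 and 125. g31300 ranked between 136 and 207 in virgin libraries and between 45 and 69 in mated ones. g36282 ranked between 726 and 1676 in virgin and between 385 and 451 in mated libraries.

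g892 had 8803, 1186, 677 and 1642 CPM in virgin replicates 2, 3, 5 and 6, against 19719, 35464, 48006 and 42546 CPM in mated replicates 8, 9, 10 and 11. Every virgin library lay below every mated one, which was so for 21.1% of all 21179 gene models tested, with virgin replicate 2 the highest of its group and mated replicate 8 the lowest of its own. The means were 3077 ± 3838 and 36434 ± 12269 CPM (SD, n = 4 each), and the fitted log2 fold change of virgin over mated females was -3.57 (standard error 0.84). Without virgin replicate 2 it was -4.97.

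g891, the neighbour of g892 on scaffold PCITRI_00015, had 5041, 765, 387 and 1046 CPM in virgin replicates 2, 3, 5 and 6, against 19039, 30754, 40509 and 37055 CPM in mated replicates 8, 9, 10 and 11. The order of the libraries within each group was that of g892, and the groups again did not overlap. Means were 1810 ± 2171 CPM in virgin females and 31839 ± 9441 CPM in mated libraries. At -4.14 (standard error 0.83), its fitted log2 fold change was the lowest of the 6, and it was -5.45 without virgin replicate 2.

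g33039, on scaffold PCITRI_00642, had 7776, 890, 485 and 1601 CPM in virgin replicates 2, 3, 5 and 6, against 14502, 23327, 28338 and 26585 CPM in mated replicates 8, 9, 10 and 11. Its groups came closest of the 4, the lowest mated library being 1.87 times the highest virgin one. Means were 2688 ± 3423 CPM in virgin females and 23188 ± 6152 CPM in mated libraries, with a log2 fold change of -3.11 (standard error 0.85) that was -4.56 without virgin replicate 2.

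g37912, on scaffold PCITRI_01035, had 2403, 661, 327 and 854 CPM in virgin replicates 2, 3, 5 and 6, against 9815, 13887, 18543 and 15992 CPM in mated replicates 8, 9, 10 and 11. Here the groups were furthest apart, with a lowest mated library 4.08 times the highest virgin one. Means were 1061 ± 921 CPM in virgin females and 14559 ± 3692 CPM in mated libraries, and the log2 fold change was -3.78 (standard error 0.61). It was -4.58 without virgin replicate 2.

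The other members, which carry entries of the vitellogenin and apolipophorin type, differed far less between the groups. g31300 had 644, 667, 649 and 810 CPM in virgin replicates 2, 3, 5 and 6, against 969, 1194, 1208 and 1120 CPM in mated replicates 8, 9, 10 and 11. The von Willebrand factor type D domain that it carries is found in vitellogenins and apolipophorins, and also in mucins and clotting proteins. Its groups did not overlap, but virgin replicate 2 was the lowest of its group and virgin replicate 6 the highest. Means were 693 ± 78.9 CPM in virgin females and 1123 ± 110 CPM in mated libraries, a log2 fold change of -0.70 (standard error 0.13).

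g36282, whose entry is the lipid-binding N-terminal part of vitellogenin, apolipophorin and microsomal triglyceride transfer protein, had 221, 135, 125 and 168 CPM in virgin replicates 2, 3, 5 and 6. It had 293, 339, 321 and 305 CPM in mated replicates 8, 9, 10 and 11. All virgin libraries were below all mated ones, and the mated libraries lay close together. Means were 162 ± 43.3 and 315 ± 20.1 CPM, and the log2 fold change was -0.96 (standard error 0.18). Without virgin replicate 2, the virgin mean was 142 ± 22.5 CPM and the log2 fold change -1.16.

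All 6 members had every virgin library below every mated one, which follows from how they were chosen. Over all gene models tested, 22.1% had every virgin library above every mated one. By the edgeR quasi-likelihood test with Benjamini-Hochberg adjusted p under 0.05, 21.3% of the models were called lower and 26.4% higher in virgin females.

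**Figure D2:**
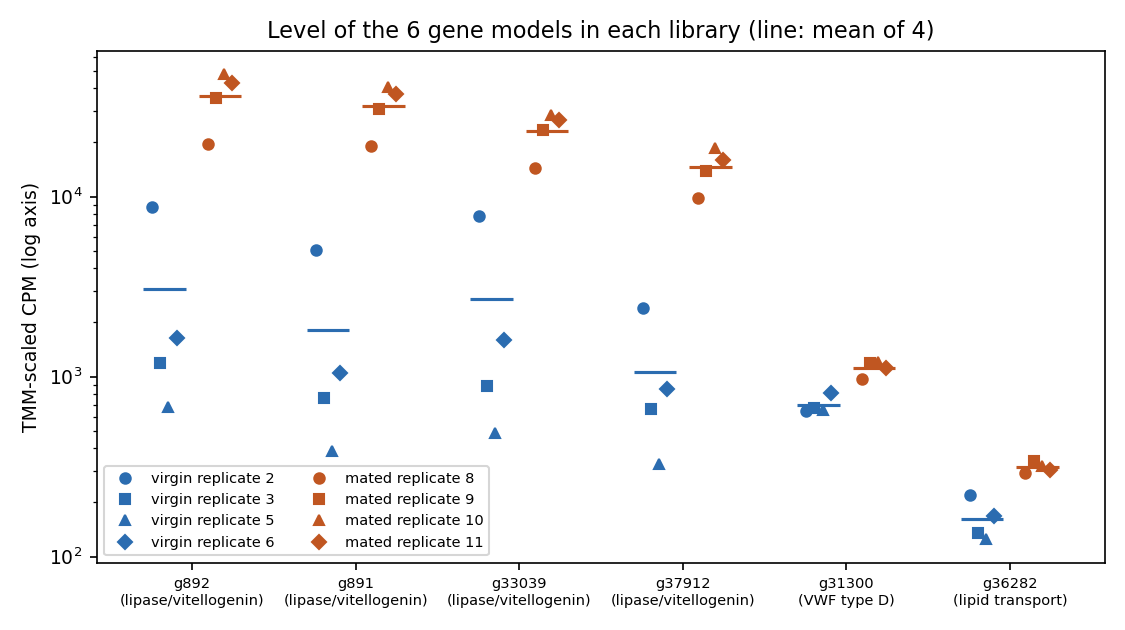
TMM-scaled CPM on a log axis of the 6 gene models in each library, virgin females to the left of mated females for each model, with a line at the mean of 4 libraries. For the 4 lipase/vitellogenin models virgin replicate 2 lies between the other virgin libraries and the mated ones, and for g31300 it does not.

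The 4 lipase/vitellogenin models varied widely among virgin libraries. The ratio of the highest to the lowest virgin library was 13.0 for g892, 13.0 for g891, 16.0 for g33039 and 7.35 for g37912, against 2.43, 2.13, 1.95 and 1.89 among mated libraries. Without virgin replicate 2 the virgin ratios were between 2.42 and 3.30. The same ratio was 1.26 for g31300 and 1.77 for g36282 in virgin females, against 1.25 and 1.16 in mated females. Of the 2094 gene models with a mean of at least 100 CPM, between 96.4% and 98.5% had a smaller SD of log2 CPM among virgin libraries than the 4 models did, and between 88.7% and 93.5% had a smaller one among mated libraries. For g31300 these shares were 25.3% and 62.8%, and for g36282 they were 71.3% and 33.9%.

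Virgin replicate 2 was measured against both sides. On the log2 scale, with the mean of the other virgin libraries as 0% and the mean of the mated libraries as 100%, it stood at 60.4% for g892, 52.7% for g891, 67.2% for g33039 and 44.8% for g37912. It stood at 55.9% for g36282 and at -19.7% for g31300. For g31300 it had 644 CPM, close to the 667 and 649 CPM of virgin replicates 3 and 5. The 810 CPM of virgin replicate 6 raised the mean that served as 0% there. Over the 2587 gene models called lower in virgin females by a distance of more than 1 log2 unit on this scale, the median place of virgin replicate 2 was 40.0% (quartiles 13.8% and 58.5%). Those calls included virgin replicate 2, so a model for which it lay near the mated libraries was less likely to be called. That median is therefore drawn towards the virgin side and is no neutral reference for the members.

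Of the 6 count ratios among the 4 models, 2 did not overlap between the groups. The ratio of g892 to g891 was 1.55 to 1.75 in virgin and 1.04 to 1.19 in mated libraries. That of g891 to g33039 was 0.648 to 0.860 in virgin and 1.31 to 1.43 in mated libraries, so that g33039 outnumbered g891 in all virgin libraries and was outnumbered by it in all mated ones. In both, virgin replicate 2 was on the virgin side. The ratio of g892 to g33039 was 1.03 to 1.40 in virgin and 1.36 to 1.69 in mated libraries and did overlap. That of g891 to g37912 was 1.16, 1.19 and 1.22 in virgin replicates 3, 5 and 6, and 2.10 in virgin replicate 2, within the 1.94 to 2.32 of the mated libraries. In virgin replicate 2, g33039 had 3.24 times the counts of g37912, against 1.35 to 1.87 in the other virgin libraries and 1.48 to 1.68 in mated ones. The ratio of g892 to g37912 was 1.79 to 2.07 in virgin replicates 3, 5 and 6, 3.66 in virgin replicate 2 and 2.01 to 2.66 in mated libraries. A ratio within a library shows unequal change and does not depend on scaling.

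**Figure D3:**
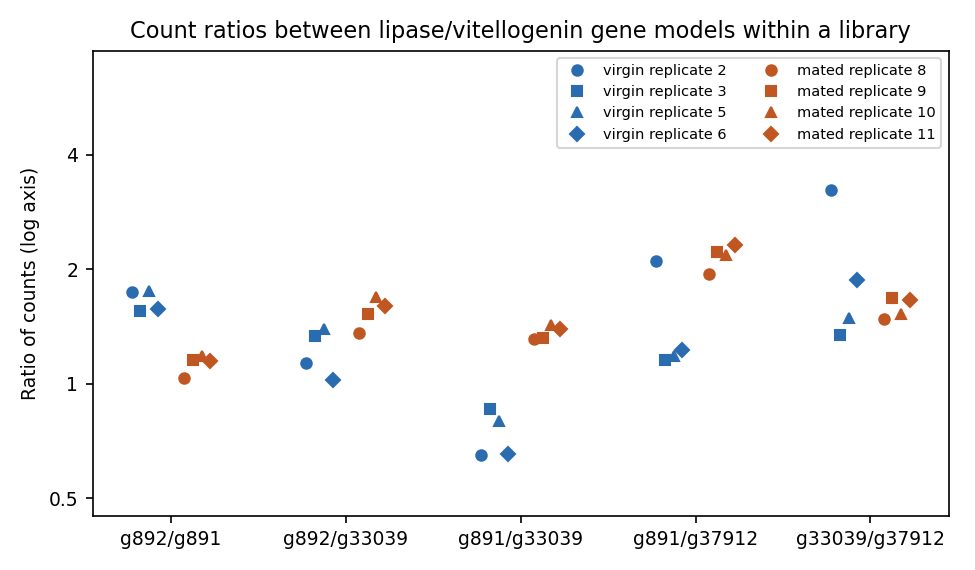
Ratio of counts between pairs of lipase/vitellogenin gene models in each library on a log axis, virgin libraries to the left of mated ones. The ratio g891/g33039 was at most 0.860 in virgin and at least 1.31 in mated libraries, and virgin replicate 2 had 3.24 for g33039/g37912.

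Over the 8 libraries, the log2 CPM of the 4 models were correlated with each other at Pearson's r between 0.986 and 0.998, and with g36282 between 0.986 and 0.990. g31300 followed them less closely, with r between 0.838 and 0.898. These values describe 8 libraries that fall into 2 groups, and the members were chosen for that difference. They carry no p-value.

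The deposited annotation gives the Lipase/vitellogenin entry to a further 34 tested gene models. Most of these did not move as the 4 members did. By edgeR with adjusted p under 0.05, virgin females had 12 of the 34 higher and 2 lower, while 20 did not pass, and the median log2 fold change was 0.42 beside 0.03 over all tested gene models. The shares were 35.3% higher and 5.88% lower, against 26.4% and 21.3% over all tested models. The count of lower models was 6 without virgin replicate 2, 0 without virgin replicate 3 or mated replicate 8, and 1 without virgin replicate 6 or mated replicates 9, 10 or 11. That of higher models was 7 without mated replicate 11. Together the 34 models had 620 to 946 CPM in virgin and 728 to 1029 CPM in mated libraries, so their summed level overlapped between the groups. The 4 members therefore made up 96.9%, 85.0%, 69.0% and 84.5% of the read pairs of the entry in virgin replicates 2, 3, 5 and 6, and between 98.4% and 99.4% in mated libraries.

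Among the relatives, g1027 averaged 25.1 ± 9.40 CPM in virgin females, against 3.44 ± 0.669 CPM in mated libraries (log2 fold change 2.87, standard error 0.31, edgeR adjusted p = 0.00105). g6063 averaged 24.4 ± 11.8 CPM in virgin females, against 3.97 ± 1.65 CPM in mated libraries (log2 fold change 2.62, edgeR adjusted p = 0.00405). These fold changes had the opposite sign to those of the members, and both models had far fewer read pairs than the members. Both of the lower models, g20839 and g29059, had the direction of the members but smaller changes and fewer read pairs. Their r with the mean log2 CPM of the 4 members over the 8 libraries was 0.768 and 0.836. g20839 averaged 138 ± 33.1 CPM in virgin females, against 254 ± 79.7 CPM in mated libraries (log2 fold change -0.88, edgeR adjusted p = 0.0262), and g29059 had 23.4 ± 6.66 and 38.2 ± 8.06 CPM (log2 fold change -0.71, edgeR adjusted p = 0.0375). The call of g20839 was lost without virgin replicate 3 or mated replicates 8 or 10 (adjusted p up to 0.0645), and that of g29059 without virgin replicate 3, virgin replicate 6 or mated replicate 8, 9 or 11 (up to 0.0928). The relative with the most read pairs, g20840, which was singled out after its values were seen, averaged 286 ± 99.0 CPM in virgin females, against 229 ± 25.9 CPM in mated libraries, and did not pass (edgeR adjusted p = 0.306, but 0.0433 without virgin replicate 3).

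A further 3 relatives, also named after their values were seen, had a profile like that of the members at a much lower level. g28310 had 8.51, 0, 0.0516 and 0.0522 CPM in virgin replicates 2, 3, 5 and 6, against 13.7, 15.2, 19.8 and 20.3 CPM in mated replicates 8, 9, 10 and 11. g21911 had 12.5, 0.556, 0.696 and 0.626 CPM in the same virgin libraries and 13.6, 14.4, 22.3 and 22.9 CPM in the mated ones. g26778 had 30.6, 2.95, 0.748 and 1.30 CPM in virgin libraries and 36.4, 23.7, 36.5 and 26.4 CPM in mated ones. In virgin replicate 2, g26778 was within the range of the mated libraries and g28310 and g21911 were below it, while the other virgin libraries were far lower for all 3. None of them passed with all 8 libraries (edgeR adjusted p = 0.134, 0.0917 and 0.189). Without virgin replicate 2 their log2 fold changes were -8.76, -4.87 and -4.23. These 3 were picked for a profile that itself separates the groups, so no p-value is given for that fit. Their r with the mean log2 CPM of the 4 members over the 8 libraries was 0.956, 0.955 and 0.922, and the next of the 34 had 0.863. The median over the 34 was -0.50.

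The genome holds a row of this family around g33039. On scaffold PCITRI_00642, g33039 to g33047 are 9 consecutive gene models that all carry the Lipase/vitellogenin entry, as their numbering shows. g33039 was the only one of the 9 with a mean above 100 CPM. Its next neighbour, g33040, averaged 43.9 ± 3.73 CPM in virgin females, against 66.5 ± 28.7 CPM in mated libraries, and did not pass (log2 fold change -0.60, edgeR adjusted p = 0.0864). Of the models further along, 3 were higher in virgin females. g33041 averaged 7.41 ± 2.90 CPM in virgin females and 2.98 ± 0.786 CPM in mated ones (log2 fold change 1.31, edgeR adjusted p = 0.0178), g33042 had 3.04 ± 1.46 and 0.855 ± 0.589 CPM (1.83, 0.0465) and g33043 had 2.26 ± 0.862 and 0.668 ± 0.144 CPM (1.76, 0.00483). The call of g33041 was lost without mated replicates 10 or 11 (adjusted p up to 0.0575). That of g33042 was lost without any library other than virgin replicate 2 or mated replicate 9 (up to 0.116). The remaining g33044 to g33047 did not pass, with log2 fold changes of 2.11, -0.05, -0.58 and -0.01. Counts are of uniquely mapped pairs, so read pairs that fit several near-identical copies in such a row are missing from all of them.

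**Figure D4:**
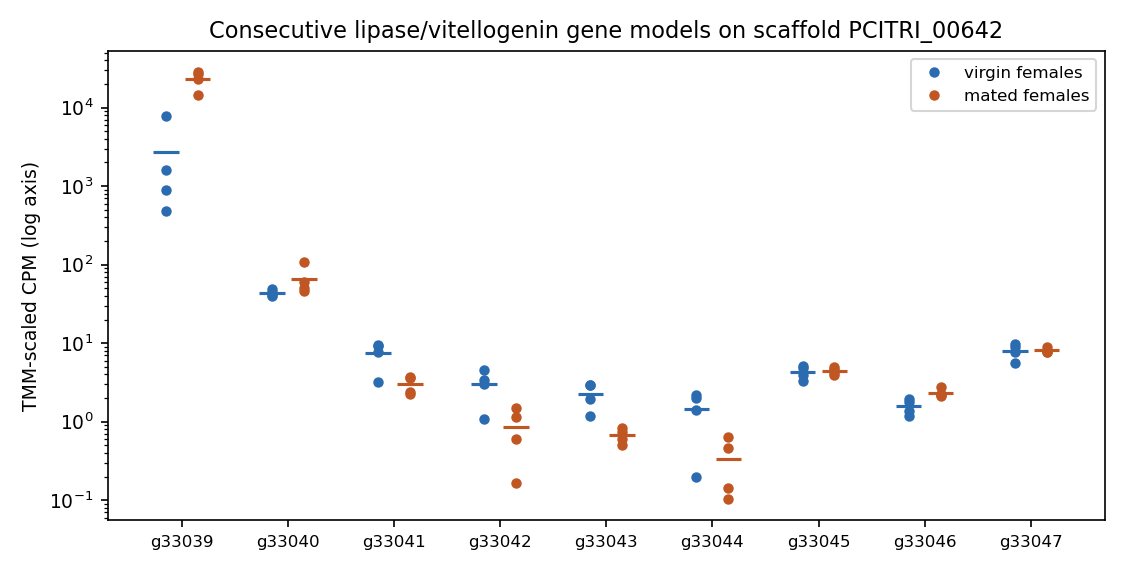
TMM-scaled CPM on a log axis of the 9 consecutive lipase/vitellogenin gene models g33039 to g33047, with points for single libraries and a line at the mean of 4, virgin females to the left of mated females. g33039 is the only model with a mean above 100 CPM in either group, and g33041 to g33043 were higher in virgin females.

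Of the 26 other models of the family off that scaffold, 13 were the only one on theirs and the rest lay on 4 scaffolds. On PCITRI_00053, 4 of 6 models were higher in virgin females and none (0) lower, and on PCITRI_00018 this was so for 2 of 3. Both of the 2 models on PCITRI_01817 were higher, and of the 2 on PCITRI_00055, 1 was lower and none (0) higher. These are small counts, beside 35.3% higher among the 34 and 26.4% higher and 21.3% lower over all tested models. On PCITRI_00053, the called models g20770, g20772 and g20776 were at low levels. They averaged 1.67, 1.90 and 1.93 CPM in virgin females and 0.377, 0.493 and 0.328 CPM in mated ones. g891 and g892 were the only Lipase/vitellogenin models on PCITRI_00015 and g37912 the only such model on PCITRI_01035.

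Of the 4 gene models around g891 and g892, all but g894 were lower in virgin females. g890, annotated as a secretin-like G protein-coupled receptor, had 1, 4, 5 and 5 counts in virgin replicates 2, 3, 5 and 6, against 421, 240, 1348 and 247 counts in mated replicates 8, 9, 10 and 11. Its level was 0.105 ± 0.0510 CPM in virgin females and 13.2 ± 10.2 CPM in mated ones (log2 fold change -6.94, standard error 0.71, edgeR adjusted p = 0.000956), and the log2 fold change was -6.29 without mated replicate 10. Virgin replicate 2 had the lowest count for this gene model, but at 1 to 5 counts the order of the virgin libraries is within counting error. g889, a sodium/solute symporter, averaged 0.919 ± 0.620 CPM in virgin females, against 4.25 ± 1.23 CPM in mated libraries (log2 fold change -2.20, edgeR adjusted p = 0.00573), and -2.90 with sample quality weights. g893, a type B carboxylesterase, had 9.52 ± 5.23 and 37.0 ± 13.9 CPM (log2 fold change -1.96, edgeR adjusted p = 0.0116), and g894 did not pass (edgeR adjusted p = 0.635).

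Beside the other members the directions were mixed, apart from g37912, where both of the tested neighbours were lower in virgin females. g33038, a type B carboxylesterase before g33039, was higher in virgin females, with 130 ± 26.9 CPM against 62.1 ± 18.6 CPM in mated ones (log2 fold change 1.06, edgeR adjusted p = 0.00683), and g33037 did not pass (0.422). Near g37912, g37910, a relative of adiponectin receptors, had 18.7 ± 6.09 CPM against 33.0 ± 2.77 CPM (log2 fold change -0.82, edgeR adjusted p = 0.0133). g37914, a membrane alanine aminopeptidase, was the other (log2 fold change -1.04, 0.0251), a call lost when virgin replicate 3 or 6 was left out, or mated replicate 9 or 11. The models directly on either side of g37912 had no more than 2 counts in any library. Before g31300, the small GTPase g31299 was higher in virgin females, with 14.1 ± 1.94 CPM against 2.45 ± 1.23 CPM (log2 fold change 2.52, edgeR adjusted p = 0.00176), while g31298, an ankyrin repeat protein, was lower (-0.51, 0.0184, lost when virgin replicate 3 or 6 was left out, or mated replicate 11). The models after g31300 did not pass (0.850 and 0.830). Around g36282, g36283, a ribosome biogenesis methyltransferase, did not pass (0.316), g36284 with an SH3 domain was lower in virgin females (-1.51, 0.00371) and g36280, an ionotropic glutamate receptor, was higher (0.86, 0.0329, lost without any library other than virgin replicate 2 or mated replicates 9 or 11). g36281 was below the filter.

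Other models with a large lipid transfer or von Willebrand factor type D entry were few. Of 5 tested, 2 were lower in virgin females, none (0) was higher and 3 did not pass, and the median log2 fold change was -0.21. Among all tested models 21.3% were called lower and 26.4% higher, with a median of 0.03. A list of 5 is too small to be set apart from these shares. g35931, which carries the open beta-sheet part of lipid transport proteins, had 359, 174, 109 and 229 CPM in virgin replicates 2, 3, 5 and 6, against 499, 653, 539 and 602 CPM in mated replicates 8, 9, 10 and 11 (log2 fold change -1.40, standard error 0.33, edgeR adjusted p = 0.00923). g33455, with a von Willebrand factor type D domain, had 32.8, 15.4, 13.6 and 33.0 CPM in these virgin libraries and 63.8, 69.8, 50.5 and 73.2 CPM in these mated ones (log2 fold change -1.44, standard error 0.32, edgeR adjusted p = 0.00725). Neither model overlapped between the groups, and without virgin replicate 2 their log2 fold changes were -1.76 and -1.64. In contrast, 3 models with the N-terminal entry of g36282 had no difference that passed. g33568 had 39.2 to 108 CPM in virgin and 75.96 to 89.3 CPM in mated libraries (log2 fold change -0.09, edgeR adjusted p = 0.795), g20472 had a log2 fold change of -0.21 (0.609) and g5401 of 0.38 (0.475). Virgin replicate 5 was the highest virgin library for all 3, at 108, 14.9 and 17.1 CPM, and the lowest for g35931 and g36282. Without virgin replicate 5 the log2 fold change of g5401 was -0.26.

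The LDL receptor family, to which the receptors for vitellogenin and lipophorin belong, was mostly lower in virgin females where it changed. Of 68 tested models with LDL receptor repeats, 31 were lower, 9 were higher and 28 did not pass, with a median log2 fold change of -0.54 beside 0.03 over all models. The shares were 45.6% lower and 13.2% higher, against 21.3% and 26.4% over all tested models. The lower count was 37 without virgin replicate 2. The higher count was 4 or 5 without any library other than virgin replicate 2 or mated replicate 8. Their summed level was 2247 to 2762 CPM in virgin replicates 3, 5 and 6, 3747 CPM in virgin replicate 2 and 4604 to 5065 CPM in mated libraries. The repeat is also found in matrix proteins and proteases, and the files do not tell which model is a yolk receptor. g31385 averaged 88.4 ± 14.5 CPM in virgin females, against 197 ± 17.9 CPM in mated libraries (log2 fold change -1.16, standard error 0.14, edgeR adjusted p = 0.00114). g12563 (log2 fold change -1.02, edgeR adjusted p = 0.00109) and g10445 (-1.61, 0.00132) were lower as well. g11841 was higher in virgin females, with 20.03 ± 8.05 CPM against 4.28 ± 1.83 CPM (log2 fold change 2.23, edgeR adjusted p = 0.00383), as were g1153 (1.02, 0.00384) and g28714 (1.30, 0.00713). On scaffold PCITRI_00426 alone there were 16 of the 68 models, numbered between g29681 and g29704, of which 7 were lower and 1 higher. Leaving these out, 24 of 52 were lower and 8 higher, with a median of -0.60. Class B repeats, which yolk and lipophorin receptors carry beside class A repeats, were the entry of 7 of the models, of which 5 were lower in virgin females, 1 was higher and 1 did not pass. Of these, g26783, g26785 and g26787 lie on PCITRI_00273 like the relative g26778. They were named after their values were seen, so their p-values only describe them. In virgin replicates 2, 3, 5 and 6, g26787 had 77.9, 34.4, 27.9 and 30.6 CPM, against 100.1, 100.1, 124 and 105 CPM in mated replicates 8, 9, 10 and 11 (log2 fold change -1.33, standard error 0.32, edgeR adjusted p = 0.011). g26785 had 108, 45.3, 38.95 and 45.3 CPM in these virgin libraries and 112, 111, 134 and 116 CPM in these mated ones (log2 fold change -0.99, edgeR adjusted p = 0.0311), a call that was lost without any library other than virgin replicate 2 (adjusted p up to 0.0833). g26783 had 124, 62.4, 59.7 and 62.1 CPM in virgin and 106, 101, 119 and 105 CPM in mated libraries and did not pass (log2 fold change -0.49, edgeR adjusted p = 0.123), though it did without virgin replicate 2 (0.000155). For g26787 and g26785 virgin replicate 2 lay between the other virgin libraries and the mated ones, and for g26783 it lay above all mated libraries.

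Other parts of lipid handling had calls in both directions. Over all tested models, 21.3% were called lower and 26.4% higher in virgin females. In the CD36 family, whose members take up lipids and lipoproteins, 3 of 17 models were lower in virgin females, 2 were higher and 12 did not pass, and 7 were lower without virgin replicate 2. With all libraries, the CD36 shares of 17.6% lower and 11.8% higher were below those over all models. g26892 averaged 62.6 ± 29.4 CPM in virgin females, against 217 ± 42.6 CPM in mated libraries (log2 fold change -1.80, edgeR adjusted p = 0.00329). g33242 (-1.65, 0.0022) and g6420 (-1.11, 0.0148) were also lower, while g23798 (2.51, 0.00321) and g16569 (1.44, 0.0154) were higher. Of 10 models with other lipase entries, 4 were higher and 1 was lower (3 without virgin replicate 2), and the higher count was 2 without mated replicates 10 or 11. The acid lipase relatives g28370 and g28371, next to each other on PCITRI_00354, were higher in virgin females. g28370 had 10.8 ± 3.88 CPM against 1.80 ± 0.873 CPM in mated ones (log2 fold change 2.59, edgeR adjusted p = 0.00304), and g28371 had 28.5 ± 11.8 CPM against 4.44 ± 2.28 CPM (2.69, 0.00437). g6829 of the same family had a log2 fold change of 3.61 (0.018), with a call lost without mated replicates 10 or 11 (up to 0.0556) and 4.92 without mated replicate 9. g26669, a patatin-like phospholipase, was lower, at 50.1 ± 15.7 CPM in virgin females and 131 ± 28.3 CPM in mated ones (log2 fold change -1.39, edgeR adjusted p = 0.00366).

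Of 24 models for lipid storage, virgin females had 6 higher and 2 lower, while 16 did not pass. The lower count was 9 without virgin replicate 2, 4 without virgin replicate 6 and 1 without virgin replicate 3. The 14 models with the diacylglycerol acyltransferase entry went both ways, with 4 higher and 1 lower. The entry does not show which lipid each of them makes. g34750 averaged 27.3 ± 9.36 CPM in virgin females, against 7.20 ± 2.22 CPM in mated libraries (log2 fold change 1.92, edgeR adjusted p = 0.00317), its neighbour g34749 had 1.67 (0.00933) and g5364 had 0.84 (0.00407). g26965 was lower in virgin females (-1.14, 0.0179, 0.0514 without virgin replicate 3), as was g9044 (-0.86, 0.00947), of the FIT family that acts in lipid droplet formation. Of 58 small lipid-binding models, 19 (32.8%) were higher, 6 (10.3%) were lower and 33 did not pass, with a median log2 fold change of 0.25. The lower count was 11 without virgin replicate 2, 2 without virgin replicate 3 and 3 without mated replicates 9 or 11. g2674, with the MD-2-related domain of sterol-binding NPC2 proteins, averaged 83.7 ± 21.9 CPM in virgin females, against 17.4 ± 4.47 CPM in mated libraries (log2 fold change 2.26, edgeR adjusted p = 0.00114). The CRAL-TRIO models g6088 (1.07, 0.00113) and g276 (1.94, 0.00132) were higher too, and g8388 (-0.87, 0.00557), g3499 (-0.80, 0.00781) and g30927 (-0.58, 0.018, 0.0546 without virgin replicate 3) of the same family were lower.

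**Figure D5:**
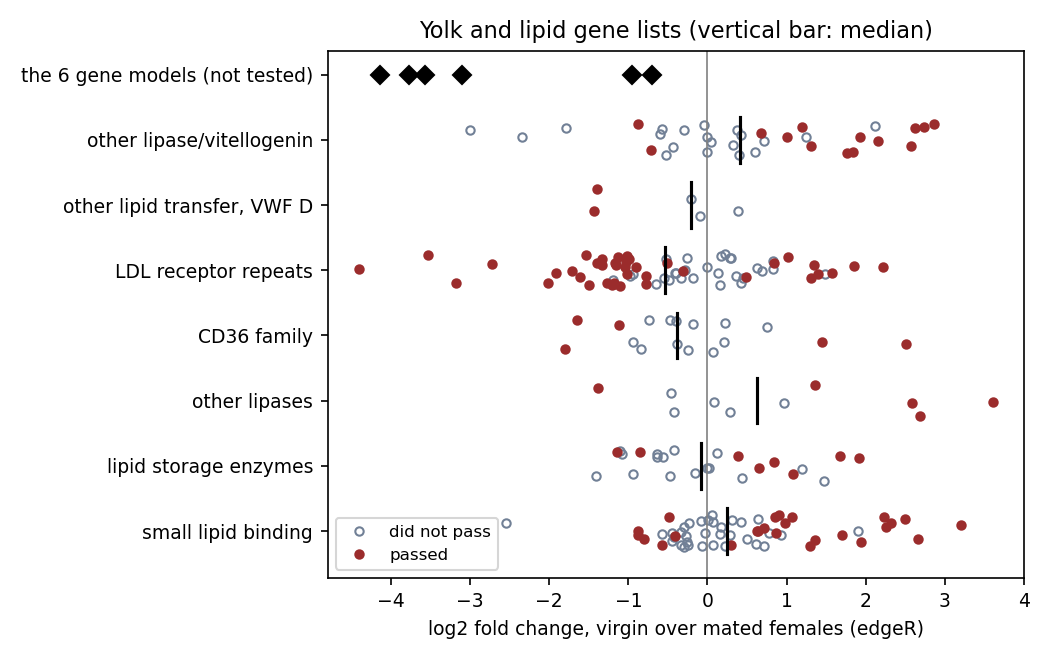
Fitted log2 fold change of virgin over mated females for the 6 members (black diamonds, not tested) and for every tested gene model of 7 lists around yolk and lipid, filled where edgeR adjusted p was under 0.05, with a bar at the list's median. The 4 lipase/vitellogenin members lie between -4.14 and -3.11, and the other 34 models of the same entry have a median of 0.42.

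Lists of markers for tissues and cell states were counted in the same way, beside 21.3% called lower and 26.4% higher over all tested models. For fat body and haemolymph, 22 models with ferritin, transferrin or hemocyanin entries were counted. Virgin females had 10 higher and 2 lower, while 10 did not pass. The summed level was 8558 to 10679 CPM in virgin and 4282 to 6685 CPM in mated libraries. By entry, 4 of 5 ferritin models were higher and none (0) lower. Of 4 transferrin models, 2 were lower and none (0) higher. Of the models with hemocyanin N-terminal, C-terminal and middle domain entries, 4 of 7, 1 of 4 and 1 of 2 were higher and none (0) lower. These entries do not by themselves mark the fat body. Of 29 models with cyclin or MCM entries, 12 were lower in virgin females, none (0) was higher and 17 did not pass. Their summed level was 1403 to 1502 CPM in virgin replicates 3, 5 and 6, 2227 CPM in virgin replicate 2 and 2445 to 2967 CPM in mated libraries, and 20 were lower without virgin replicate 2. The cyclin entries do not by themselves mark dividing cells. Of 16 models with the cyclin N-terminal entry 4 were lower, and of 5 with the C-terminal entry 2 were. Of 5 models with the MCM domain entry 4 were lower, and of 3 with the MCM OB entry 2 were. The MCM helicase model g2995, for example, averaged 46.7 ± 5.64 CPM in virgin females, against 123 ± 15.9 CPM in mated libraries (log2 fold change -1.40, edgeR adjusted p = 0.00085). Of 17 muscle models, 13 were higher in virgin females and none (0) lower, with a summed level of 4612 CPM in virgin replicate 2, up to 11235 CPM in the other virgin libraries and 1901 to 3704 CPM in mated libraries. Of 13 models with Piwi, PAZ or Argonaute linker entries, which small RNA proteins of germ line and soma share, 3 were lower (5 without virgin replicate 5), 1 was higher (3 without virgin replicate 2) and 9 did not pass, at 4671 to 5844 CPM in virgin and 4182 to 4902 CPM in mated libraries. With all libraries, their lower share of 23.1% was near that over all models. Of 8 models with dynein heavy chain, sperm-tail PG-rich or major sperm protein entries, virgin females had 4 higher and 1 lower (3 without virgin replicate 2, 0 without any other library except virgin replicate 5), while 3 did not pass, at 175 to 212 CPM in virgin and 150 to 165 CPM in mated libraries. The lower one, g7893, is among 3 models with the major sperm protein domain, which in insects is found in membrane proteins of many cells, so the list does not by itself mark stored sperm. None of these marker lists had a summed level at 0 in any library. The part of these tissues in the levels of the members was not tested.

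The gene models whose log2 CPM ran most closely with each member over the 8 libraries were sought among the 11528 with an InterPro description and a mean of at least 1 CPM. Closest to g891 was g25345, a mitochondrial glycoprotein family model, with Pearson's r of 0.997 and 1.504 ± 1.86 CPM in virgin against 25.7 ± 7.70 CPM in mated females. It was also among the 3 closest to g892 (0.995), after the protein kinase g37390 (0.996) and the Arf GTPase activating protein g32119 (0.996). g32119 was among the closest 3 to g892, g891 and g37912, although its log2 fold change was only -0.56, since a correlation does not reflect the size of a change. The third model close to g891 was g29518, of unknown function (0.996). Closest to g33039 were the UDP-glycosyltransferase g24277 (0.996), the calpain g1622 (0.996) and the adenylate cyclase g12755 (0.996). Closest to g37912 were the BTB/POZ model g32621 (0.996), with 0.333 ± 0.300 CPM in virgin females and 5.76 ± 0.885 CPM in mated ones, and the ABC transporter g29563 (0.996), with 47.3 ± 26.4 and 229 ± 28.0 CPM.

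The closest models to g31300 had lower correlations. They were g31229, a chitin-binding model (0.980), with 10.1 ± 1.97 CPM in virgin females and 78.9 ± 21.8 CPM in mated ones, g3886, a chondroitin N-acetylgalactosaminyltransferase (0.980), and g5012, an aminopeptidase relative (0.978). For g36282 they were g37659, an LMBR1-like membrane protein (0.995), g4431 with a PAS fold (0.994) and g10998, with filamin repeats (0.993). These correlations are over 8 libraries that fall into 2 groups, and they carry no p-value.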

How the data were processed

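RNA-seq of polyadenylated RNA was performed on 8 libraries. The deposited counts are integer tallies of the read pairs that mapped uniquely to each gene model, made by the authors in CLC Genomics Workbench 10.0.1 on the Pcitri.v1 genome. Libraries were strand-specific, but no source read here states whether the counting used strand. The authors also deposited log2 CPM values, which were only checked and differed by at most 0.262 for the members. A deposited table of log2 fold changes and adjusted p-values by the authors for 17669 genes served only for its InterPro entries. FastQC and the R packages limma 3.34.9 and edgeR 3.20.9, under R 3.4.2, appear in the submitters' processing notes.

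Counts of all gene models were fitted with edgeR 4.0.16 under R 4.3.3 (filterByExpr, TMM, glmQLFit and glmQLFTest on condition alone, all 8 libraries). Of 40620 models 21179 were tested, with Benjamini-Hochberg adjustment over all of them and calls at 0.05. The script was tested on simulated data. Log2 CPM used a prior count of 2. Each standard error is the absolute fitted log2 fold change divided by the square root of the quasi-likelihood F statistic. For the members it is given as a description only. The 6 members and the lists, defined by InterPro entries, were chosen with earlier results of these data known. Named genes are the members, up to 3 called models each way per list with the smallest p and a mean of at least 1 CPM, all other large lipid transfer and von Willebrand factor type D models, the 2 models on either side of each member and the 3 closest in profile. All models of the g33039 row, g20840, g28310, g21911, g26778 and 3 LDL receptor models of scaffold PCITRI_00273 were added after their values were seen. Alternatives were DESeq2 1.42.0 size factors, upper-quartile factors, library size only, limma 3.58.1 voom with and without sample quality weights, no count filter and each library left out. Library size counted without the 4 lipase/vitellogenin models, and without TMM scaling, was chosen after seeing the data. No column of per-sample values was left unassigned. Sequences and coordinates of the gene models were not analysed here.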

Additional observations from a re-analysis of the deposited data

Results flagged for a closer look

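Within a group of 4 libraries, the gap between the highest or lowest library and its nearest neighbour, as a share of the whole range, was compared with Dixon's critical value for 4 samples. Chance alone puts about 1 in 20 groups past it. Of 214 groups, from 106 gene models and the summed share of the lipase/vitellogenin members, 21 were past it, and virgin replicate 2 was the library that stood apart in 15 of them. These gene models include the members and others chosen for their values or for a profile like that of the members, so the count is not to be read against that chance rate.

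Virgin replicate 2 was far above the other virgin libraries for g892 (0.8813), g891 (0.8584) and g33039 (0.8469), and for the summed share of the 4 lipase/vitellogenin models (0.8538). g37912 was not among the values past the limit. For g31300 it was virgin replicate 6 that lay above the others (0.8593), with 810 CPM against 667 CPM in the next.

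Virgin replicate 2 was also far above the rest for g28310 (0.9939), g21911 (0.9882) and g26778 (0.9265) of the same entry, for the LDL receptor models g26783 (0.9565), g26785 (0.9076) and g26787 (0.8695), and for g25345 (0.8598) and g29518 (0.9224), which ran most closely with g892 or g891. It was past the limit on the low side for g890 (0.9812), the receptor model beside g891, for the acid lipase relative g28370 (0.8603) and for the troponin g35930 (0.8474). At g890, that library had 1 count against 4 or 5 in the others, a difference within counting error.

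Virgin replicate 5 was far above the other virgin libraries for g5401 (0.8778), and virgin replicate 6 for g26965 (0.8366) and g31229 (0.8994). Among mated libraries, replicate 8 was far below the others for g32621 (0.8363), and replicate 10 far above them for g33046 (0.8765).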

How the results depend on the processing

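The log2 fold changes of the 6 members kept their sign in every setting. With each library left out in turn they ranged from -4.97 to -3.26 for g892, -5.45 to -3.82 for g891, -4.56 to -2.78 for g33039, -4.58 to -3.50 for g37912, -0.77 to -0.67 for g31300 and -1.16 to -0.87 for g36282. Sample quality weights gave -4.81 for g892 and -4.45 for g33039. Over all gene models the higher calls ranged from 4217 to 6891 and the lower calls from 3438 to 6724 with a library left out, and quality weights gave 6877 lower calls.

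With a library left out, higher and lower calls ranged from 7 to 14 and from 0 to 6 for the other lipase/vitellogenin models, from 4 to 12 and 22 to 37 for LDL receptor repeats, from 2 to 3 and 3 to 7 for CD36, from 2 to 5 and 1 to 3 for other lipases, from 4 to 7 and 1 to 9 for lipid storage, from 13 to 24 and 2 to 11 for small lipid-binding models, from 1 to 3 and 2 to 5 for Piwi, PAZ and Argonaute models, from 0 to 2 and 10 to 20 for mitosis models, and at 4 and from 0 to 3 for sperm tail and dynein models. Ferritin, transferrin and hemocyanin models had 8 to 13 higher and 2 to 3 lower calls with a library left out. The large lipid transfer and von Willebrand factor type D models had 0 higher and 2 lower calls in every setting.

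Lower calls of the other lipase/vitellogenin models were 4 with DESeq2 size factors, 4 with upper-quartile factors, 1 with library size only, 5 with limma voom, 7 with quality weights and 4 with library size counted without the 4 members. For the same settings except library size only, lower calls of other lipases were 2, 2, 2, 3 and 2 and those of lipid storage 5, 4, 4, 10 and 4. Lower calls of CD36 were 6 with DESeq2 size factors, 5 with upper-quartile factors, 5 with limma voom and 8 with quality weights. Higher calls of LDL receptor repeats were 5 with limma voom and 14 with quality weights. Quality weights also gave 4 higher CD36 calls, 13 lower small lipid-binding calls, 3 higher and 5 lower calls of Piwi, PAZ and Argonaute models, 2 higher and 21 lower mitosis calls and 3 lower sperm tail and dynein calls. Muscle models had 1 lower call with DESeq2 size factors, upper-quartile factors, quality weights and library size without the members, which also gave 5 lower calls of Piwi, PAZ and Argonaute models. That last setting, which also left out TMM scaling, moved the median log2 fold change over all gene models by -0.12. The cause of these changes was not tested. For 100 other named genes, 1500 values were recomputed over these settings, of which 1420 kept their side of the threshold, 55 lost a call, 25 gained it and none (0) changed the sign of a call.

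No paired analysis was possible because the groups share no replicate number. With 4 libraries a group, p-values set the difference between the groups against the spread between pools of females. That spread does not cover the way the insects were kept, which differed between the groups. Unique mapping leaves near-identical copies uncertain, and without stated strand use overlapping antisense transcription could not be set apart. At these depths the members had at least 4112 counts in every library, so counting error was small for them, whereas g28310 and g890 rested on 0 to 5 counts in most virgin libraries.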
